A study of Mus musculus with 2 samples.

Results

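Mir132, Mir212, Mir182, Mir183 and Mir96 are 5 of the 2202 microRNA genes counted in small RNA libraries of mouse adrenal gland. They were chosen by name, as the members of 2 genomic clusters that have been reported to rise in the adrenal after adrenocorticotropic hormone (ACTH), and the rule that picks their rows uses no measured value. The data are 2 microRNA-seq libraries of 1 group, numbered as biological replicates 1 and 2. Both come from total RNA of adrenal tissue of wild-type C57BL/6J mice supplied by The Jackson Laboratory. Age and developmental stage are given as unknown, and the labels disagree on sex, which is female in one place and not collected in another. The labels name no hormone treatment, so nothing in these data measures a response to ACTH. Both libraries carry the same donor identifier, and nothing in the labels says outright that they are from separate animals. Every p-value below therefore concerns only the difference between these libraries, which may be technical. Unless stated, it sets that difference against counting error alone and holds no estimate of the spread between libraries.

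ACTH is released by the pituitary and acts on a receptor of the adrenal cortex that raises cyclic AMP, which drives steroid synthesis and, through the factor CREB, transcription. The cluster of Mir212 and Mir132 is known in neurons as a target of CREB. The cluster of Mir183, Mir96 and Mir182 is known from sensory organs such as the retina and the inner ear, where its 3 microRNAs are made from a shared precursor. A microRNA finds its targets mainly through its seed, bases 2 to 8 from the 5′ end.

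The guide arms, the strands of each hairpin known to be loaded most, are shown because their seeds separate the clusters. They are RefSeq sequences (GRCm38.p6), 5′ to 3′, with the seed in capitals.
miR-132-3p: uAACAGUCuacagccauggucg
miR-212-3p: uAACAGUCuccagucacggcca
miR-182-5p: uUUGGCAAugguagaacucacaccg
miR-183-5p: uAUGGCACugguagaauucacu
miR-96-5p: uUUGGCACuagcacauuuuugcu

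miR-132-3p and miR-212-3p had the same seed, AACAGUC, and were identical at their first 9 bases and at 17 of 22 positions counted from the 5′ end. The members of the other cluster had 3 different seeds. The seed of miR-96-5p matched that of miR-182-5p at 6 of 7 positions and that of miR-183-5p also at 6 of 7. Over their full length miR-182-5p and miR-183-5p were the most alike of these 3, at 18 of 22 positions, although 5 of their 7 seed positions matched. Across the RefSeq microRNAs no other gene shared the seed of miR-132-3p and miR-212-3p, none shared that of miR-182-5p or of miR-183-5p, and 1 shared that of miR-96-5p. That gene, Gm24195 (miR-1271-5p), had no count in either library, which allows up to 0.328 CPM in replicate 1 and 0.457 CPM in replicate 2. CPM are counts per 1000000 counts on the strand of a microRNA gene.

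None of the 10 mature sequences of the 5 genes lay in another RefSeq hairpin, and none of the guide arms matched another of the 141767 GENCODE M21 transcripts on either strand. The tables keep multimapping reads in a row apart from the genes, 35.9% of all reads in replicate 1 and nearly the same in replicate 2. Genes with identical copies lose such reads, and the members have no such copy among these sequences.

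The cluster of Mir212 and Mir132 lies on the plus strand of chromosome 11 (mm10). Mir212 comes first, at 75173388-75173478, and Mir132 follows at 75173682-75173747, with 203 bases between the hairpins. Both are in the first intron of the non-coding transcript 1700016P03Rik, between its exons at 75172560-75172597 and 75173978-75174161. The cluster of Mir183, Mir96 and Mir182 lies on the minus strand of chromosome 6. In order of transcription it holds Mir183 (30169668-30169737), Mir96 (30169446-30169551) and Mir182 (30165918-30165992). Mir96 starts 116 bases after Mir183, and Mir182 starts 3453 bases after Mir96. GENCODE M21 has no other gene over these 3 hairpins, while RefSeq places all 3 within the long non-coding RNA gene Mirc35hg (30158640-30174125). In the 300 bases around the Mirc35hg start (chr6:30174076-30174375, minus strand) neither the cyclic AMP response element TGACGTCA nor its core TGACG was found on either strand. These letters were present in 1.79% and 20.8% of all 32851 RefSeq promoter windows of that length, the longer motif being counted in both shares. A missing match says only that these letters are not in this window. No promoter window was available for 1700016P03Rik, so the cluster of Mir212 and Mir132 was not searched.

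**Figure D1:**
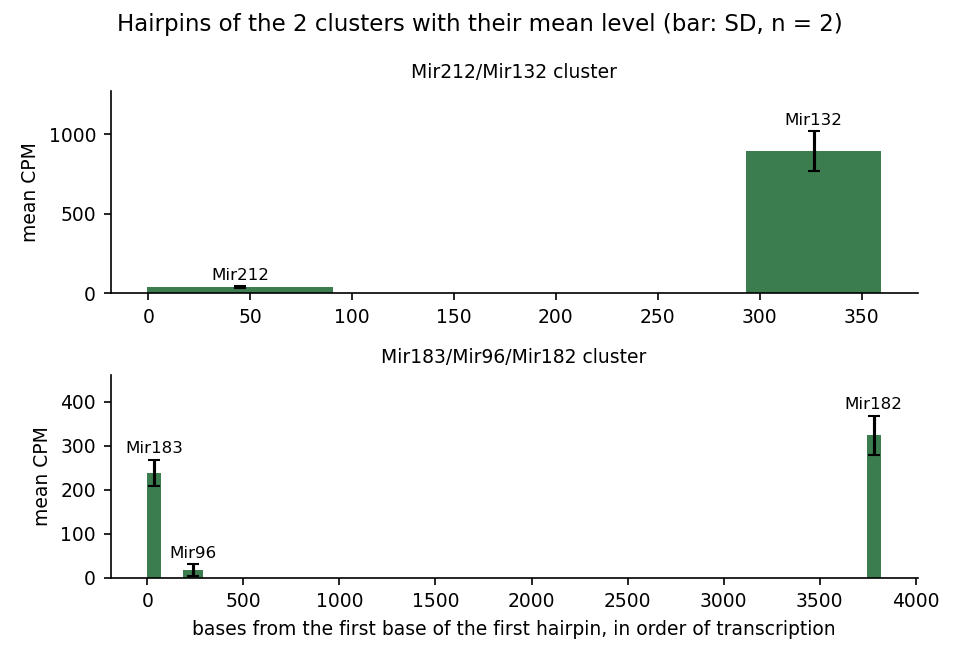
Mean CPM (vertical axis, linear, bars with SD, n = 2) of each hairpin against its distance in bases from the first base of its cluster (horizontal axis). Mir212 and Mir132 are 203 bases apart at 36.7 and 893 CPM, and Mir96 stands at 17.7 CPM between Mir183 at 238 CPM and Mir182 at 323 CPM.

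The libraries held 9137907 and 6570375 counts on the strand of microRNA genes, and 403 genes had at least 10 counts in both. All 5 members were among those 403. Marker lists, chosen with earlier results of these data known, describe the tissue and are no independent check of it. The 4 neuroendocrine genes listed (Mir375 and the Mir7 genes) are known from cells such as those of the adrenal medulla. All were detected, at 54062 and 51805 CPM in sum, of which Mir375 had 50274 and 48617 CPM. Endothelial Mir126a had 61677 and 54325 CPM, and the 6 epithelial genes summed to 49.8 and 53.1 CPM. Of markers of neighbouring organs, the 4 kidney genes had 112 and 118 CPM in sum and hepatocyte Mir122 had 128 and 71.5 CPM. The mean of Mir122, 99.8 CPM, was above the median of 62.1 CPM of the genes detected in both libraries. What part neighbouring tissue had in these values was not tested. Of 11 neuronal marker genes, 4 were detected and 6, the copies of Mir124a and Mir9, had no count. Genes with copies elsewhere in the genome lose reads, so those zeros cannot be read as absence. No list held a microRNA that defines the adrenal cortex, so the label was not checked against cortical cells.

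Mir132 was the most abundant member. It had 7343 counts in replicate 1 and 6453 in replicate 2, which is 804 CPM (exact 95% interval 785 to 822) and 982 CPM (958 to 1006). Its mean was 893 ± 126 CPM (SD, n = 2), rank 83 of 2202 genes. Replicate 2 was the higher library. All intervals are computed from counts within a library and cover counting error only. The reads carry no stated molecular identifiers, so duplicates could not be told apart and the intervals may be too narrow.

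Mir212, the other gene with the same seed, had 374 and 213 counts, or 40.9 CPM (36.9 to 45.3) and 32.4 CPM (28.2 to 37.1). Its mean was 36.7 ± 6.02 CPM (SD, n = 2), rank 227. Here replicate 1 was higher. Mir132 therefore supplied nearly all counts of the cluster, 95.2% (94.7 to 95.6) in replicate 1 and 96.8% (96.4 to 97.2) in replicate 2. The ratio of Mir132 to Mir212 was 19.6 (17.7 to 21.8) in replicate 1 and 30.3 (26.4 to 34.9) in replicate 2. Counts are for whole hairpins, so the share of the guide arm in each was not measured.

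Mir182 led the other cluster with 3243 and 1914 counts, or 355 CPM (343 to 367) and 291 CPM (278 to 305). Its mean was 323 ± 45.0 CPM (SD, n = 2), rank 124. Mir183, the first hairpin of the precursor, had 1982 and 1707 counts, or 217 CPM (207 to 227) and 260 CPM (248 to 272). Its mean was 238 ± 30.3 CPM (SD, n = 2), rank 142. The libraries differed in opposite directions for these genes, and the ranges of Mir182 and Mir183 did not overlap.

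Mir96, the microRNA in which seed mutations are known to cause hearing loss, was the least abundant member. It had 252 counts in replicate 1 and 51 in replicate 2, or 27.6 CPM (24.3 to 31.2) and 7.76 CPM (5.78 to 10.2). The mean was 17.7 ± 14.0 CPM (SD, n = 2), rank 264. The SD was 79.3% of the mean for Mir96 and between 12.7% and 16.4% of it for the other members. Replicate 1 was the high library.

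The order Mir132, Mir182, Mir183, Mir212, Mir96 was the same in both libraries. The guide arms are 22 to 25 bases long, and levels were compared between genes with no term for length. This takes each read to cover a whole mature product, which gene counts cannot show. Of neighbours in that order, Mir182 over Mir183 was 1.64 (1.55 to 1.73) in replicate 1 and 1.12 (1.05 to 1.20) in replicate 2. Mir212 over Mir96 was 1.48 (1.26 to 1.75) and 4.18 (3.06 to 5.79), with intervals that overlapped those of Mir182 over Mir183 in replicate 1 only. With 2 libraries the order was not tested beyond counting error.

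**Figure D2:**
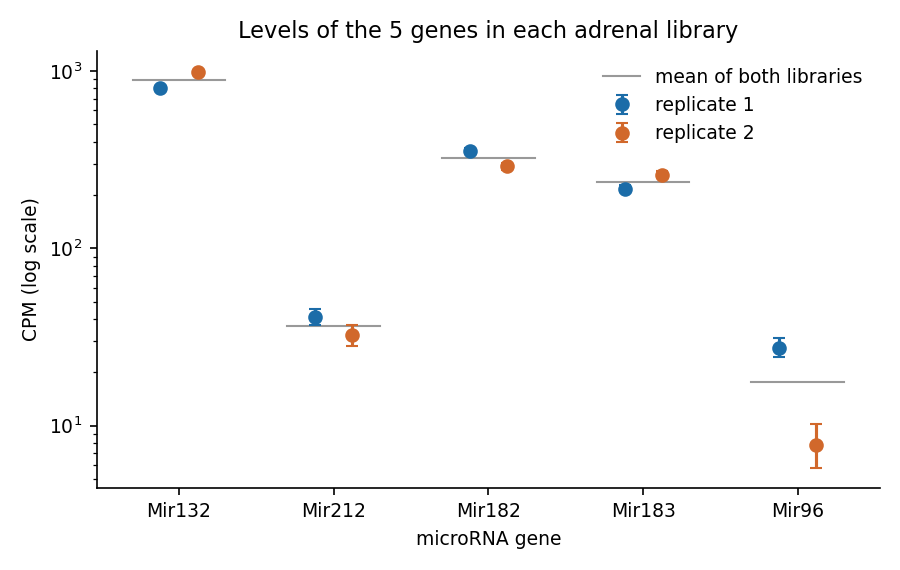
CPM on a log axis of the 5 genes in replicate 1 and replicate 2, with exact 95% counting intervals as bars and the mean of both libraries as a grey line. The order of the genes is the same in both libraries, and Mir96 has the widest gap, from 27.6 to 7.76 CPM.

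Both clusters were modest parts of the counted pool. Mir212 and Mir132 summed to 845 and 1015 CPM (mean 930 ± 120, SD, n = 2), and Mir183, Mir96 and Mir182 to 599 and 559 CPM (579 ± 28.6). All 5 genes together made up 0.151% of the counts. For scale, Mirlet7g, the most abundant gene of the table, was 126 times as high as Mir132 and 6391 times as high as Mir96. The median gene among the 403 detected in both libraries had a mean of 62.1 CPM, so Mir132, Mir182 and Mir183 lay above it and Mir212 and Mir96 below it.

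Each gene's counts were then compared between the libraries with an exact two-sided binomial test against library sizes scaled by TMM (edgeR), adjusted by the Benjamini-Hochberg method over all 426 genes with at least 20 counts in sum. This compares 2 libraries, not conditions. All 5 members passed at an adjusted p under 0.05, but so did 56.1% of all genes tested, so passing is no feature of the members. Of the members 2 were higher in replicate 2 (25.8% of all genes were called in that direction) and 3 in replicate 1 (30.3%). The median log2 ratio, replicate 2 over replicate 1, was -0.39 over the members and -0.03 over all genes tested. The median absolute log2 ratio was 0.39 over the members and 0.29 over all genes tested. Scaled by total counts instead, it was 0.29 over the members and 0.31 over all genes tested. Which of these medians is larger thus depended on the scaling.

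Folds and log2 ratios of single genes use TMM-scaled library sizes unless stated, so they differ from ratios of the CPM above. Mir132 in replicate 2 was 1.14 times its scaled level in replicate 1 (0.19 on the log2 scale). Its 95% interval from counting error was 0.14 to 0.24 (adjusted p = 1.48e-13, exact binomial test). Mir183 was 1.12-fold higher in replicate 2 (0.16, interval 0.06 to 0.25, adjusted p = 0.00234, exact binomial test). These are small differences, exceeded in absolute size by 276 and 299 of the 426 genes. Mir212 was 1.35-fold higher in replicate 1 (-0.44, interval -0.69 to -0.19, adjusted p = 9.66e-04, exact binomial test). Mir182 was 1.31-fold higher in replicate 1 (-0.39, interval -0.47 to -0.31, adjusted p = 2.21e-20, exact binomial test). Larger absolute ratios were found in 160 and 176 genes.

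Mir96 stood apart from the other members. Its TMM-scaled level in replicate 1 was 3.79 times that in replicate 2 (a log2 value of -1.92, interval -2.40 to -1.49, adjusted p = 2.20e-22, exact binomial test). Brought to the scaled depth of replicate 2, the 252 counts of replicate 1 come to 195, against 51 counted. Of all tested genes 10 had a larger absolute log2 ratio. Of the 67 other genes within 2-fold of its level 1 did, where the median was 0.33. That gene, named after its values were seen, was Mir153, at 461 and 56 counts.

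The binomial test knows counting error only. Set instead against the spread of all genes between these libraries, with edgeR's exact test at the common dispersion (a coefficient of variation of 0.299, estimated from the same libraries), none of the 5 members passed. Mir96 had p = 0.00411 and an adjusted p of 0.250 in that edgeR exact test, and the other members had adjusted p = 1.00. That test called 3 of 426 genes (0.704%), namely Mir26a-2, Mir153 and Mir185 (named after their values were seen), and 28 had an unadjusted p under 0.05, of which Mir96 was the only member.

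**Figure D3:**
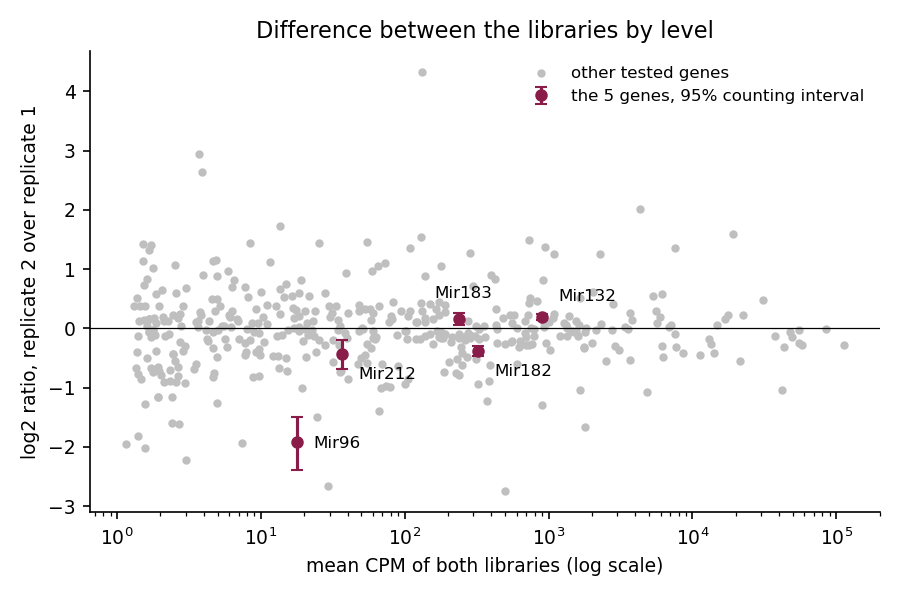
Log2 ratio of replicate 2 over replicate 1 (vertical axis, TMM scaling) against mean CPM (horizontal axis, log scale) for 426 tested genes, with the 5 members in red and their 95% counting intervals. Mir132, Mir183, Mir212 and Mir182 lie between -0.44 and 0.19 within the cloud of genes, and Mir96 lies at -1.92 near its lower edge.

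Genes of a cluster that share a precursor can be compared within a library, where no scaling between libraries is needed. Mir96 made up 4.60% (exact 95% interval 4.06 to 5.19) of the 5477 counts of its cluster in replicate 1 and 1.39% (1.04 to 1.82) of the 3672 counts in replicate 2. Mir183 made up 36.2% (34.9 to 37.5) and 46.5% (44.9 to 48.1), and Mir182 59.2% (57.9 to 60.5) and 52.1% (50.5 to 53.8). The sum of the cluster was 599 CPM (584 to 615) in replicate 1 and 559 CPM (541 to 577) in replicate 2. Neither the interval of the sum nor that of any share overlapped between the libraries. The 3 shares depend on each other, so these are not 3 separate differences. How often shares differ so in other clusters was not counted, but 67.0% of all neighbouring pairs passed the test of their ratio given below.

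**Figure D4:**
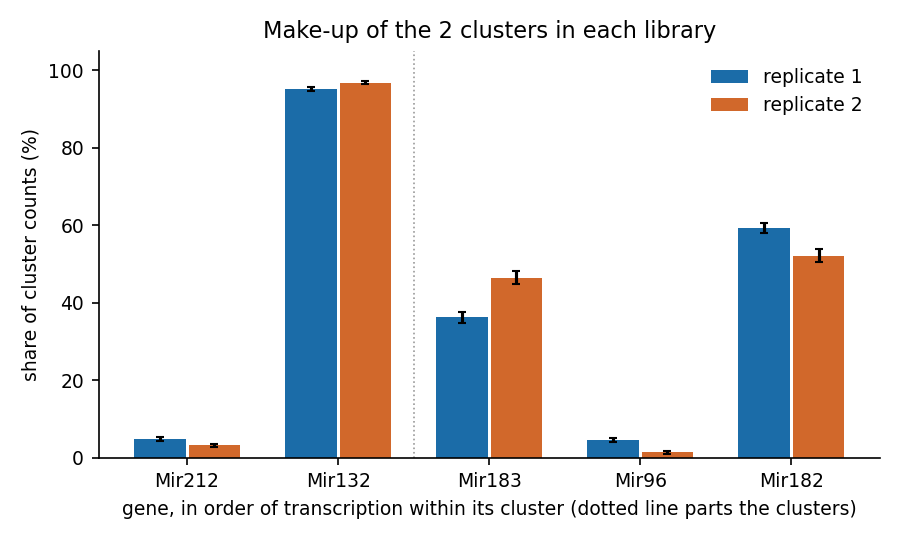
Share of each gene in the counts of its cluster (vertical axis, percent) in replicate 1 and replicate 2, with exact 95% intervals. Mir132 holds over 95% of its cluster in both libraries, while Mir183 holds 36.2% in replicate 1 and 46.5% in replicate 2.

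The ratio of neighbouring genes was tested with Fisher's exact test over all 97 pairs of adjacent microRNA genes on the same strand, at most 10000 bases apart, with at least 20 counts each. All 3 member pairs passed after adjustment over the 97 pairs, against 67.0% of all pairs. The ratio of Mir96 to Mir183 was lower in replicate 2 by a log2 change of -2.08 (interval -2.56 to -1.64, adjusted p = 9.54e-25, Fisher's exact test). The ratio of Mir182 to Mir96 was higher by 1.53 (1.10 to 2.02, adjusted p = 1.76e-13, Fisher's exact test), and that of Mir132 to Mir212 by 0.62 (0.37 to 0.88, adjusted p = 1.28e-06, Fisher's exact test). The median absolute change over the 97 pairs was 0.44. For the pair of Mir183 and Mir96 1 pair changed more, for Mir96 and Mir182 7 pairs and for Mir212 and Mir132 36 pairs. The pair above Mir183 and Mir96, named after its values were seen, was Mir15a and Mir16-1, 54 bases apart. The mature sequences of 332 tested genes lay in no other RefSeq hairpin. Among the 70 pairs of such genes, none changed more than Mir183 and Mir96. This filter was chosen after the data were seen and leaves out the pair of Mir15a and Mir16-1. The place of Mir183 and Mir96 among the 70 is therefore a description only.

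**Figure D5:**
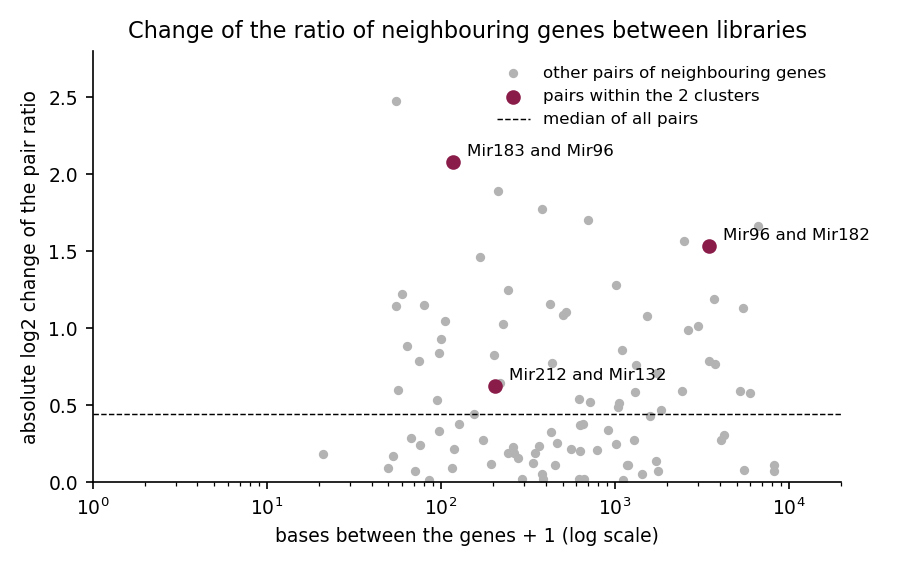
Absolute log2 change of the ratio of 2 neighbouring genes between the libraries (vertical axis) against the bases between them plus 1 (horizontal axis, log scale) for 97 pairs, the dashed line being the median of 0.44. The pair of Mir183 and Mir96 lies next to the top (change -2.08), Mir96 and Mir182 at 1.53 and Mir212 and Mir132 at 0.62.

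The levels of neighbours within a cluster also differed widely, which was common in the table. Mir132 and Mir212 differed by 4.55 on the log2 scale of summed counts, Mir182 and Mir96 by 4.09, and Mir183 and Mir96 by 3.61. The median of the 97 pairs was 2.87, and 21, 28 and 33 pairs respectively differed more.

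Some other measures moved with the difference in Mir96, in a table where 30.3% of all genes tested were called higher in replicate 1 and 25.8% in replicate 2. These shares and the calls below use TMM scaling. By total counts, 93 of the 426 genes were called higher in replicate 1 and 150 in replicate 2. The neuronal marker list summed to 531 CPM in replicate 1 and 374 in replicate 2, with 3 of its 4 tested genes higher in replicate 1 and none in replicate 2. The neuroendocrine list summed to 54062 and 51805 CPM, with 3 of 4 higher in replicate 1 and none in replicate 2. Hepatocyte Mir122 (log2 ratio -0.94) and endothelial Mir126a (-0.29), which are not neural markers, were also higher in replicate 1. The kidney list (112 and 118 CPM) and the epithelial list (49.8 and 53.1 CPM) each had 1 gene called in each direction. The blood list of 3 genes went the other way, at 144 and 295 CPM, with 2 genes higher in replicate 2. The mature arms of Mir96 had a mean GC content of 37.7%, lower than in all but 27 of 361 tested genes with a RefSeq sequence. Its hairpin had 50.9%, near the median hairpin at 51.5%. The mature arms of Mir183, which was higher in replicate 2, had 43.2%, with 79 of the 361 genes lower. Across those genes the Spearman rho with the log2 ratio was 0.17 for GC content of mature arms and 0.10 for hairpins. Both values only describe these libraries. The part of any of these in the result was not tested. In bulk tissue, fewer cells of a type and less RNA per cell cannot be told apart.

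Nearest to each member in level over both libraries, by distance in log2(CPM + 1), were the following genes. Mir134 (816 and 988 CPM) and Mir27a (855 and 993 CPM) were nearest to Mir132. Mir192 (37.2 and 32.7 CPM) and Mir128-1 (43.3 and 28.2 CPM) were nearest to Mir212. Mir296 (359 and 269 CPM) and Mirlet7f-1 (337 and 320 CPM) were nearest to Mir182. Mir700 (237 and 238 CPM) and Mir542 (243 and 234 CPM) were nearest to Mir183. Mir505 (25.3 and 13.4 CPM) and Mir365-2 (18.3 and 11.9 CPM) were nearest to Mir96, but at distances of 0.73 and 0.79, where the nearest gene to each other member lay within 0.18. The likeness rests on 2 libraries and so mostly on level.

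Other microRNAs reported to respond to adrenal hormones in rats were listed from general knowledge. Of those reported to fall after ACTH, Mir214, a microRNA of mesenchymal cells, had 2163 and 1132 CPM, Mir27a 855 and 993 CPM, and Mir503 123 and 176 CPM. Mir214 was higher in replicate 1 (log2 ratio -1.04) and Mir27a (0.11) and Mir503 (0.41) in replicate 2, so 3 of the 3 tested passed, in both directions, at a median of 0.11. Of all genes tested 56.1% passed the same test, so nothing is read from that count. The 8 copies of Mir466b had no count, but near-copies lose reads with several alignments and their level cannot be read. Mir370 (130 and 124 CPM, log2 ratio -0.18) and Mir377 (58.8 and 46.4 CPM, -0.44), reported to rise with oestrogen treatment, were both higher in replicate 1. Of 4 genes reported to fall after dexamethasone, Mir27b (5326 and 6560 CPM, 0.20) and Mir200b (12.7 and 19.9 CPM, 0.55) were higher in replicate 2, Mir122 (-0.94) was higher in replicate 1, and Mir19a had 1 and 0 counts. Mir132 thus lay close to Mir27a. In mean level Mir27a (924 CPM), Mir214 (1648 CPM) and Mir27b (5943 CPM) were higher than every member. These lists show where such genes stand in these libraries and measure no hormone effect.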

How the data were processed

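The authors deposited 1 table of raw read counts per library for 2202 microRNA genes, made on mm10 with GENCODE M21 per the notes deposited beside them. No source used here names the aligner or the counting tool. The tables have no header. Column 3, with the larger stranded total, was read as reads on the gene's own strand, and the 4 rows that name no gene (51.2% and 54.6% of reads) were left out. All 2202 identifiers matched GENCODE M21. CPM, ranks, ratios and intervals were computed from the counts with Python 3.11.15 and SciPy 1.17.1. TMM and the exact test with a common dispersion came from edgeR 4.0.16, and size factors from DESeq2 1.42.0. Log2 ratios add 0.5 counts. Adjustment was by Benjamini-Hochberg at 0.05 across all genes or pairs. The scripts for the binomial and Fisher tests, not the edgeR test, were tested on simulated data. Named genes are the members, the 2 nearest genes to each, the listed genes, seed sharers, host genes and the most abundant gene. Mir153, Mir26a-2, Mir185, Mir15a and Mir16-1 fall outside that rule and were named after their values were seen. The rule for the members uses no measured value, but the members and lists were chosen with earlier results of these data known, so the choice was not independent of the data. The planned motif search upstream of each cluster was replaced by the RefSeq promoter window of Mirc35hg. The cluster of Mir212 and Mir132 was not searched. How well each sequence is captured in a library was not measured.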

Additional observations from a re-analysis of the deposited data

How the results depend on the processing

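With 2 libraries of 1 group, depth limits Mir96 most, at 51 counts in replicate 2, and no setting adds a test over animals. No paired analysis was possible because there is 1 group. With edgeR's exact test at the common dispersion the count of called genes fell from 239 to 3 and no member passed, at log2 ratios of 0.19 (Mir132), -0.44 (Mir212), -0.39 (Mir182), 0.16 (Mir183) and -1.93 (Mir96). This test adds the spread over genes to counting error. Under the other settings (total counts, DESeq2 size factors, other filters, either strand, 1 count added, and single-copy genes, the last chosen after seeing the data) all 35 member ratios kept their direction and stayed called. Over these settings the log2 ratio of Mir96 ran from -1.93 to -1.82. TMM lowered all log2 ratios by 0.10 against total counts, by which 61.7% of called genes were higher in replicate 2, against 46.0% with TMM. With the 10 most abundant genes left out of the totals, mean CPM became 2147 (Mir132), 89.4 (Mir212), 787 (Mir182), 573 (Mir183), 44.3 (Mir96), 2236 (Mir212 and Mir132) and 1404 (Mir183, Mir96 and Mir182), because the divisor is smaller. Counts on either strand, whose total is smaller, put the latter cluster at 638 CPM. Limiting pairs to 1000 bases called 40 of 62, and the pair of Mir96 and Mir182 then has no value. All 14 alternative values of the 3 pair changes stayed called in the same direction. Leaving out replicate 1 or 2 gives each library's own CPM, from 7.76 to 27.6 for Mir96.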

Other observations

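The seed letters shared by miR-132-3p and miR-212-3p, AACAGUC, also stood in the hairpin of Mir183, at positions 31 to 37 counted from its 5′ end. They lie in the 17 bases between its mature arms, so neither annotated product of Mir183 carries them whole. Of 1005 RefSeq hairpins 6 hold these letters (0.597%). The match is a description of sequence, and reads from the loop are not told apart in these counts.

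The strand opposite to the members gave no reads, except 1 count for Mir183 in replicate 2.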
